A study of Rattus norvegicus with 9 samples.

Results

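The vesicle trafficking and release machinery of sensory neurons and their neighbours was followed through 84 genes, in rats made diabetic with streptozotocin and in normal rats. The members are the genes of the array whose symbol is Rab, Stx, Syt, Vamp or Snap followed by a digit, or begins with Stxbp. They number 84 among 10411 genes that had at least 1 probe set with a single symbol: 46 Rab, 11 Stx, 4 Stxbp, 13 Syt, 6 Vamp and 4 Snap genes. Each gene is represented by its brightest probe set over the 9 arrays. The letters also admit 3 genes that are not members of these families by function. Rab3ip and Rab5if are partners of Rab proteins, and Snap91 is the clathrin assembly protein AP180.

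RNA came from the dorsal root ganglia at lumbar levels L4 to L6 of Sprague-Dawley rats, which hold the cell bodies of the sensory neurons of the leg with their satellite glia, Schwann cells and connective tissue. Streptozotocin (STZ) kills pancreatic beta cells and so removes insulin, and the study used it to model painful diabetic neuropathy. The first group was normal rats given vehicle, with no STZ injection. The second was STZ-injected rats given vehicle, and the third was STZ-injected rats that received FK1706, a ligand of immunophilins, at a dose not stated here. No group of normal rats given FK1706 is among the 9 arrays. Ganglia were taken on the day after 1, 2 or 3 weeks of dosing, and each array holds equal amounts of RNA from 5 rats. A group therefore has 3 arrays, 1 per week, and every p-value below measures the spread between pools, weekly changes of a difference included. In such whole-ganglion RNA, fewer cells of a type and less RNA per cell cannot be told apart.

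Vesicles are moved and delivered in a fixed order of steps. Rab proteins are small GTPases that mark each membrane and recruit the motors and tethers that carry it. Fusion itself is done by SNARE proteins, a Vamp on the vesicle zipping with a syntaxin (Stx) and a Snap protein on the target membrane. Syntaxin-binding proteins (Stxbp) guide the syntaxins, and many synaptotagmins (Syt) sense calcium. In sensory neurons this machinery releases glutamate and neuropeptides and delivers channels and receptors to the cell surface and axon.

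The 5 members with an unadjusted p under 0.05 for STZ vehicle against normal (limma) were Rab29, Rab11b, Snap25, Rab6b and Rab34. For 4 of them the sequence before the start site is shown. RefSeq promoter windows of build GRCr8 were matched by symbol for 66 of the 84 members; Snap25 is named only. Each sequence is the 250 bases before the start site that its window assumes. It is written 5′ to 3′ in the direction of the gene, with matches to 5 motifs in capitals. Rab29 lies at chr13:45859788-45860037 on the plus strand, a window in which RefSeq's gene span already opens at 45859930. Rab11b lies at chr7:15236755-15237004 on the minus strand, Rab6b at chr8:112573973-112574222 on the plus strand and Rab34 at chr10:63581292-63581541 on the plus strand; these 3 windows end where the annotated gene begins.
Rab29: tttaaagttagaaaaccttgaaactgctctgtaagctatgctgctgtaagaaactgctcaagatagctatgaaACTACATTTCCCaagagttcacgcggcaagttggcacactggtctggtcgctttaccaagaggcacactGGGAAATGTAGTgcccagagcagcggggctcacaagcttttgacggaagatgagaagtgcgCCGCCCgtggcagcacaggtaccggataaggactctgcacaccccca
Rab11b: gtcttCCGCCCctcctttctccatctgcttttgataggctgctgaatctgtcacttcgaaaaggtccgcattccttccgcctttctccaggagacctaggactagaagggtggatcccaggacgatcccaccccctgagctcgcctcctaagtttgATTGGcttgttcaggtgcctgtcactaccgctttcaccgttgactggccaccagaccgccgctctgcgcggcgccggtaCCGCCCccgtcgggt
Rab6b: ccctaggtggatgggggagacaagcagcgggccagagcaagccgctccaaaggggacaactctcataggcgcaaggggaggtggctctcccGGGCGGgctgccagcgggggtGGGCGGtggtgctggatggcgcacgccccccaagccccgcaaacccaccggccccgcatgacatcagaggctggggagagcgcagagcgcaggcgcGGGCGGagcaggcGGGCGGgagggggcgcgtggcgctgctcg
Rab34: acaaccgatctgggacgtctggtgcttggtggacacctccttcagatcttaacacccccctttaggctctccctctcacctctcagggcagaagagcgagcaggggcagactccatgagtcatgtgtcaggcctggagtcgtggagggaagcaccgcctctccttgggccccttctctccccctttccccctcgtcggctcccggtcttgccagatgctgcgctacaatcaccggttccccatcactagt

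The motifs were searched on both strands and were chosen after the sequences had been seen, so their counts are a description. They were the GC box GGGCGG, the CCAAT box CCAAT, the cyclic AMP response element TGACGTCA, the E-box CACGTG and the ZNF143 core ACTACANTTCCC, whose letters were copied from the Rab29 window with 1 position open. No 2 of these share letters at any match shown. The Rab29 window held the ZNF143 core on each strand, 177 and 108 bases before the start site of the window, and 1 GC box. The second core and the GC box lie inside RefSeq's gene span, which opens at the first base of that core. A match to that core was present in 1.19% of 21851 protein-coding windows, and 0.0503% held at least 2. Among the 66 member windows only Rab29, the source of the letters, held it, which is 1.52%. Rab11b held 2 GC boxes and 1 CCAAT box, Rab6b held 4 GC boxes, and Rab34 held none of the 5 motifs. The GC box was found in 72.7% of member windows and in 38.9% of all protein-coding windows, whose median GC content was 62.4% and 54%. The E-box was found in 9.09% of member windows and 6.16% of all, the CCAAT box in 37.9% and 35%, and the cyclic AMP element in 3.03% and 1.89%. Of the windows shown, those of Rab29, Rab11b and Rab6b, which were higher in STZ vehicle arrays, thus shared the GC box. Most member windows also hold this letter run, and the windows of other higher Rab genes are not shown.

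Signals were put on a log2 scale and quantile-normalized between arrays, and a gene was tested if its mean reached the 40th percentile of all probe set means, a log2 level of 7.36. Of the 84 members, 70 passed this filter, among 6990 genes tested. By step, the tested genes were 19 of 28 in synaptic and secretory release, 11 of 14 in delivery to the plasma membrane outside the synapse, 12 of 12 at the endoplasmic reticulum and Golgi, 16 of 16 at early and recycling endosomes, and 12 of 14 at late endosomes, lysosomes and autophagosomes. The 14 members left untested were Rab23, Rab25, Rab26, Rab27a, Rab27b, Rab39a, Stx3, Stx17, Syt6, Syt7, Syt8, Syt10, Syt13 and Syt17. Just below the filter stood Rab27b, with a mean log2 level of 7.28, and just above it Snap23, with 7.41.

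Array pairs correlated between 0.969 and 0.981 over the normalized values. Markers of 9 cell types were summed over the genes on the array. The 23 neuron markers summed to 99515 to 101762 in normal, 99637 to 102106 in STZ vehicle and 99823 to 101959 in STZ FK1706 arrays. The 11 cartilage and bone markers separated normal arrays from both STZ groups without overlap. They summed to 3058 to 3659 in normal, 1699 to 2357 in STZ vehicle and 1963 to 2428 in STZ FK1706 arrays. The STZ groups overlapped each other. The 14 Schwann cell markers summed to 46938 to 48210, 41363 to 46861 and 43183 to 45339 in that order, and were lower without overlap in both STZ groups. The 12 fibroblast markers summed to 29627 to 39432, 24662 to 30115 and 26917 to 31847, and the 8 mast cell and neutrophil markers to 1800 to 2453, 1161 to 1949 and 1456 to 2898. The median log2 difference of STZ vehicle from normal over the tested genes was 0.01 for neurons, -0.62 for cartilage and bone, -0.68 for mast cells and neutrophils, -0.39 for skeletal muscle, -0.22 for fibroblasts, -0.09 for Schwann cells and for satellite glia, -0.06 for macrophages and 0.00 for endothelium. Those that passed were the collagen genes Col2a1 of cartilage and Col1a1 and Col3a1 of fibroblasts, which fell in STZ vehicle against normal ganglia, with log2 differences of -1.18, -0.82 and -0.54 and adjusted p of 0.0106, 0.0104 and 0.0106 (limma, Benjamini-Hochberg). The muscle and mast cell values were uneven over the weeks. For muscle, the median deviation from the mean over the arrays was -0.23, 1.24 and 0.21 by week in normal arrays. In STZ vehicle arrays it was 0.01, -0.59 and 0.36, so only week 2 was lower. For mast cells and neutrophils it was 0.04, 0.39 and 0.45 in normal arrays. In STZ vehicle arrays it was -0.23, 0.10 and -0.87, with the largest gap in week 3. Only 2 markers, both of mast cells and neutrophils, had a mean signal at or below 18.7, the offset of the log scale. The part of these cell types in the values below was not tested.

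The question of the first comparison was what STZ did to the ganglia of rats given vehicle. None of the 70 members passed an adjusted p of 0.05 (limma, Benjamini-Hochberg over all genes tested), where 0.0858% of all genes, 6 of 6990, did; the smallest adjusted p of a member was 0.357, for Rab29. At an unadjusted p of 0.05, 5 members were past the limit, which is 7.14% of them against 8.67% of all genes tested. Of the 5, Rab29, Rab11b, Snap25 and Rab6b were higher, as were 3.96% of all genes, and Rab34 was lower, as were 4.71%. The median log2 difference of the 70 members was 0.01, with 39 above and 31 below 0, and that of all genes was 0.00. The share of members past this limit was close to that of all genes.

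**Figure D1:**
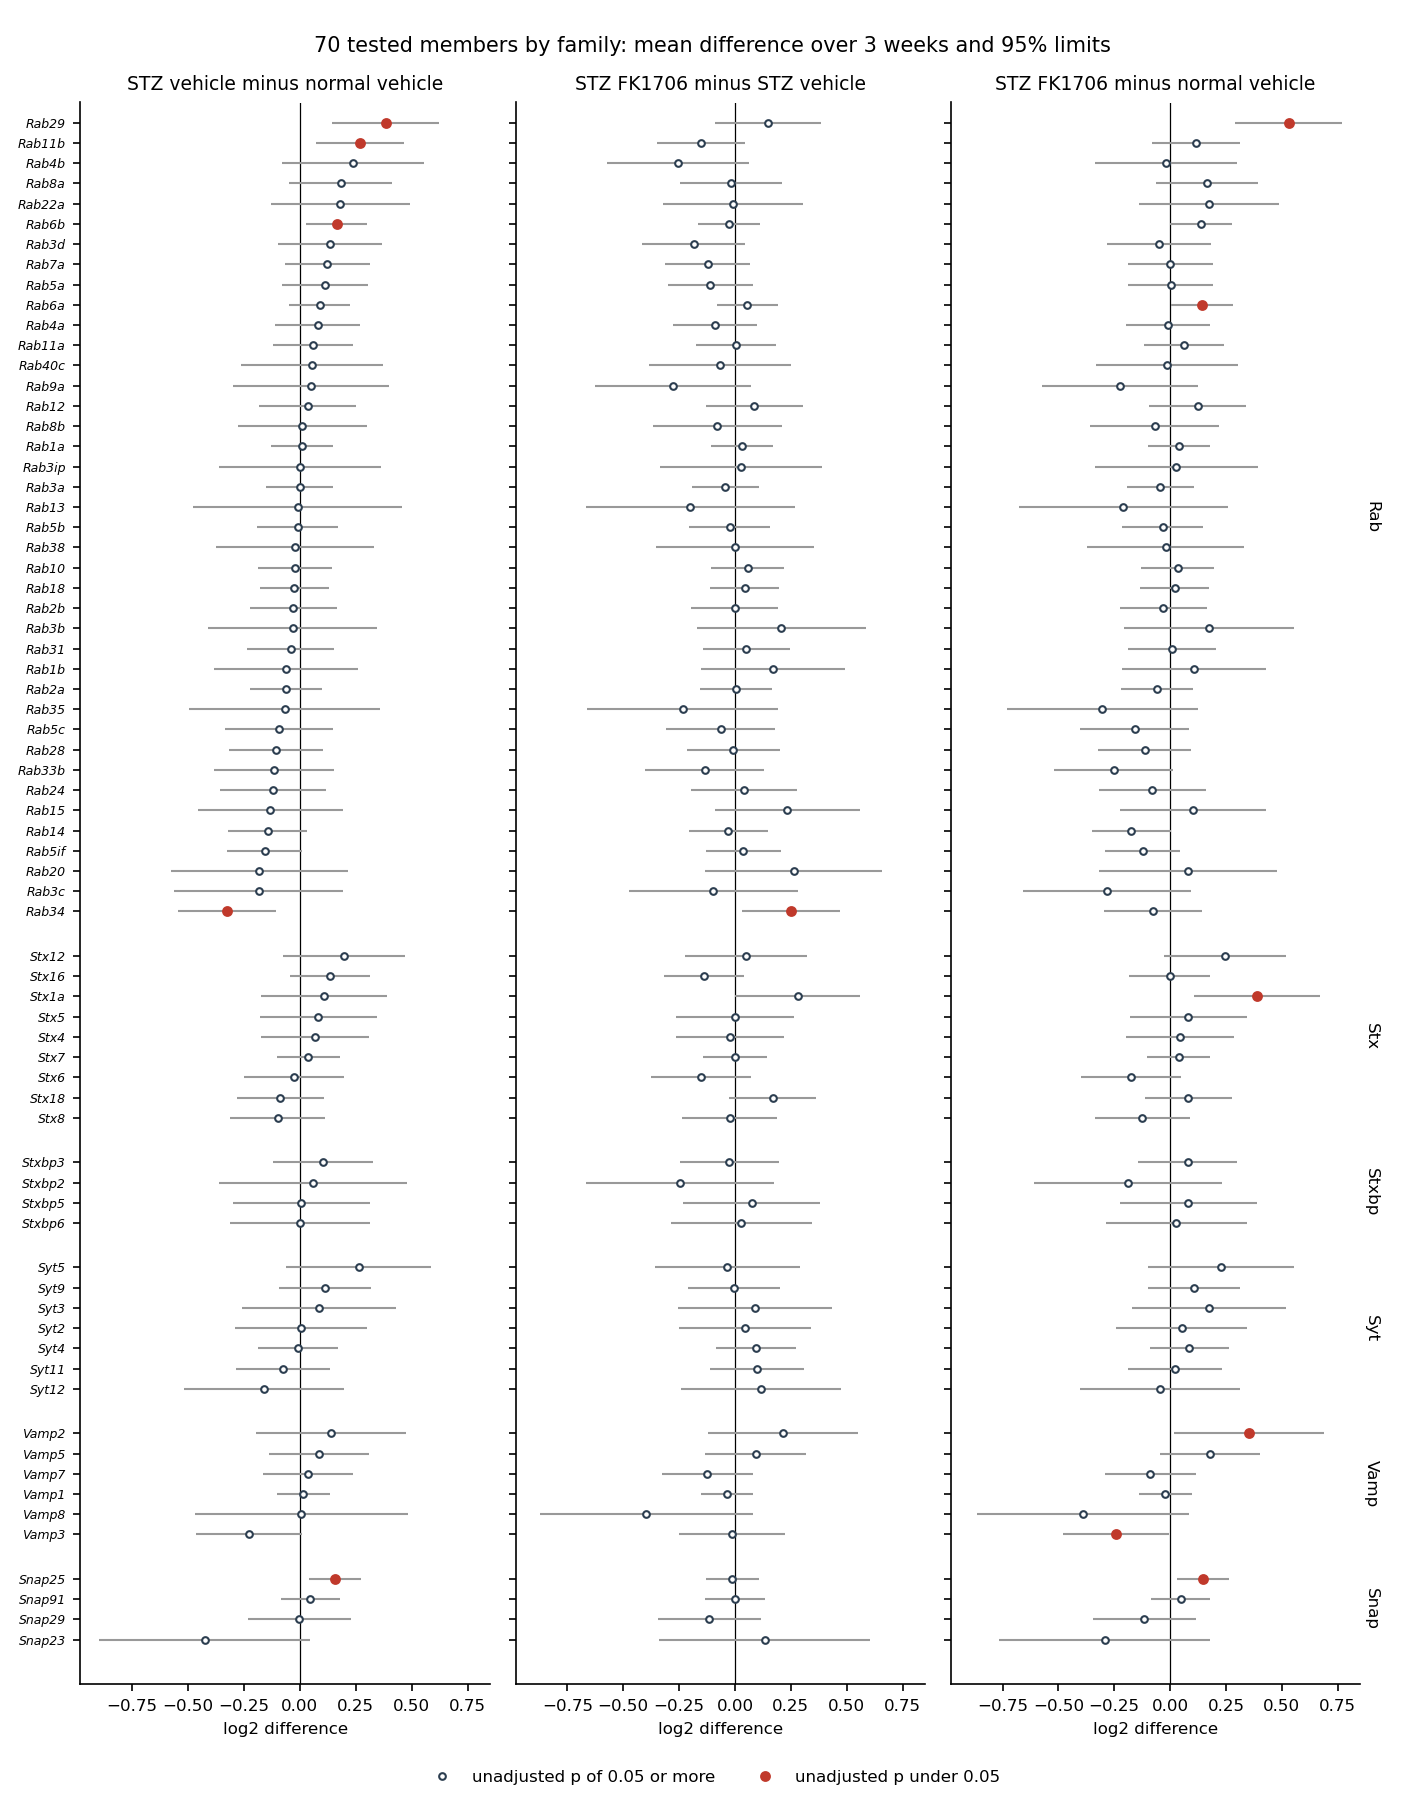
Log2 differences (horizontal axes) of the 70 tested members, grouped by family and ordered by the STZ vehicle minus normal vehicle difference; points are means over 3 weeks, grey lines are 95% limits from limma, and filled points had an unadjusted p under 0.05. Filled points are 5, 1 and 6 of 70 in the 3 panels, and no member reached a 1.5-fold mean difference.

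Among the synaptic fusion genes, Snap25 showed the tightest offset. Snap25 is the plasma membrane SNARE of neurons, on chromosome 3 of GRCr8 at 144494579 to 144576449. Its normalized log2 signal in weeks 1, 2 and 3 was 12.82, 12.81 and 12.87 for normal ganglia, 13.00, 12.95 and 13.02 for STZ vehicle, and 12.92, 13.05 and 12.97 for STZ FK1706. Every STZ array, with or without FK1706, lay above every normal array, a pattern whose share among all genes was not counted. The mean difference of STZ vehicle from normal was 0.16 ± 0.05 (SE, n = 3 against 3; limma, adjusted p = 0.455), a 1.12-fold ratio, with weekly values of 0.18, 0.14 and 0.15. On the deposited scale, where array brightness was left as it was, the difference was 0.08 while the median of all genes was -0.10.

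Other members of synaptic release had differences on both sides of 0. Rab3a, the synaptic vesicle Rab, read 10.93, 10.97 and 11.00 for normal, 10.99, 10.99 and 10.92 for STZ vehicle and 10.85, 10.99 and 10.93 for STZ FK1706. Its difference of STZ vehicle from normal was 0.00 ± 0.07 (SE, n = 3 against 3), with 95% limits of -0.15 and 0.15. Vamp1, synaptobrevin 1 of the vesicle membrane, read 12.64, 12.58 and 12.55 for normal against 12.64, 12.57 and 12.60 for STZ vehicle. The difference of 0.02 ± 0.05 had 95% limits of -0.10 and 0.13. These limits, which hold for the probe set used, lie well inside a 1.5-fold difference, which is 0.585 on the log2 scale. A further Vamp1 probe set, given with the second probe sets below, lay under the lower Vamp1 limit. Stx1a, the neuronal syntaxin, differed by 0.11 ± 0.13, Vamp2, synaptobrevin 2, by 0.14 ± 0.15, and Syt5, a synaptotagmin, by 0.26 ± 0.15, all 3 with weekly values of both signs. For Syt5 the normal arrays of weeks 1 and 2 were low, at 8.02 and 7.67, while the week 3 one matched its STZ counterpart at 8.36. Rab3c, a close relative of Rab3a, differed by -0.19 ± 0.17, a value that turned to 0.01 without the week 1 STZ vehicle array.

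At the late endosome and lysosome, Rab29 and Rab34 stood at opposite ends. Rab29 is a Golgi and lysosomal Rab that recruits the kinase LRRK2. By week it read 9.11, 8.95 and 9.16 for normal, 9.34, 9.21 and 9.81 for STZ vehicle and 9.40, 9.51 and 9.90 for STZ FK1706. All 6 STZ arrays lay above all 3 normal arrays, by the most in week 3. The share of all genes with this pattern was not counted. The difference of STZ vehicle from normal was 0.38 ± 0.11 (SE, n = 3 against 3; limma, adjusted p = 0.357), with weekly values of 0.23, 0.27 and 0.65. Over all alternative settings the sign of this difference held, and it ranged from 0.26 without week 3 to 0.48 without the week 1 normal array. As deposited, before normalization, Rab29 had signals of 660.9, 528 and 489.7 for normal against 760.7, 555 and 733 for STZ vehicle.

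Rab34 is a Rab that positions lysosomes and takes part in building cilia. It read 9.68, 9.39 and 9.56 for normal, 9.16, 9.30 and 9.19 for STZ vehicle and 9.49, 9.37 and 9.54 for STZ FK1706. The 3 STZ vehicle arrays were the lowest of the 9. The difference of STZ vehicle from normal was -0.33 ± 0.10 (SE, n = 3 against 3; limma, adjusted p = 0.411), or 1.25-fold lower, with the gap smallest in week 2, at -0.09. A second probe set of Rab34 gave -0.19. Rab24, an autophagy Rab, differed by -0.12 ± 0.11 with weekly values of both signs.

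Along the recycling endosome, Rab11b was higher and Vamp3 lower in STZ vehicle ganglia. Rab11b marks recycling endosomes and carries receptors back to the surface. It read a nearly level 10.85, 10.87 and 10.85 for normal against 11.00, 11.10 and 11.28 for STZ vehicle. The STZ FK1706 arrays read 11.08, 10.99 and 10.85, within the STZ vehicle range in week 1 and at the normal level in week 3. The difference of STZ vehicle from normal was 0.27 ± 0.09 (SE, n = 3 against 3; limma, adjusted p = 0.455), and a second Rab11b probe set gave 0.13. Vamp3, also called cellubrevin, is the general vesicle SNARE of this compartment. It read 9.80, 10.03 and 9.86 for normal against 9.81, 9.59 and 9.60 for STZ vehicle. Its difference was -0.23 ± 0.11, with nothing in week 1 (0.02) and lower values of -0.44 and -0.26 in weeks 2 and 3. Rab4b, of the fast recycling route, differed by 0.24 ± 0.14 and was higher in all 3 weeks, while the groups overlapped. Rab14, of the route between Golgi and endosome, differed by -0.14 ± 0.08, but its 3 other probe sets gave 0.03, 0.12 and 0.08. Rab5if, named for its partner Rab5, was lower in all 3 weeks without overlap, by -0.16 ± 0.08.

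Members at the endoplasmic reticulum and Golgi kept close together. Rab6b, the neuron-enriched form of the Golgi transport Rab6, read 11.60, 11.62 and 11.61 for normal, 11.79, 11.67 and 11.87 for STZ vehicle and 11.74, 11.72 and 11.79 for STZ FK1706. All 6 STZ arrays were above all 3 normal ones, a pattern whose share among all genes was not counted. The STZ vehicle difference was 0.16 ± 0.06 (SE, n = 3 against 3; limma, adjusted p = 0.488). Stx16, a trans-Golgi syntaxin, was 0.14 ± 0.08 higher and did not overlap with normal. The 12 members at the endoplasmic reticulum and Golgi had a median difference of -0.02, with 5 above and 7 below 0.

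For delivery to the plasma membrane outside the synapse, Snap23 gave 2 answers. Snap23 is the form of Snap25 used by most other cells. The probe set used read 7.65, 7.70 and 7.59 for normal against 7.46, 7.01 and 7.20 for STZ vehicle, without overlap, a difference of -0.43 ± 0.21 (SE, n = 3 against 3; limma, adjusted p = 0.583). A second Snap23 probe set of nearly the same mean level, 7.41 for both, gave 0.62 in the opposite direction, with weekly values of 0.29, 1.15 and 0.40. The mean of both probe sets was 0.10, so no direction can be given for Snap23. Rab8a, which carries cargo to the surface and the cilium, was 0.18 ± 0.10 higher, in all 3 weeks but with overlap, and Rab28, a ciliary Rab, differed by -0.11 ± 0.09, which became 0.01 without the week 2 normal array.

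**Figure D2:**
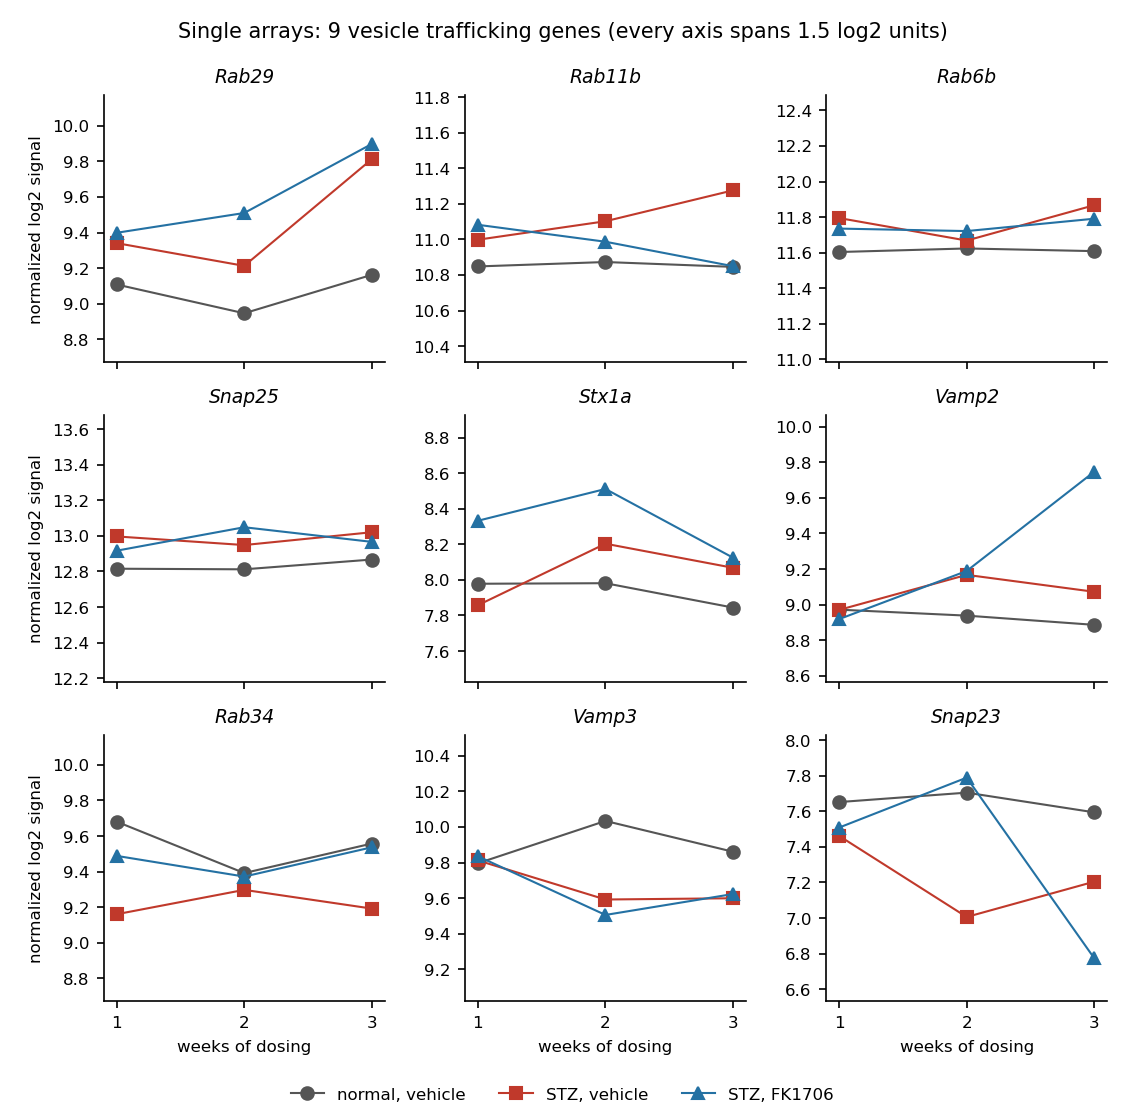
Normalized log2 signal (vertical axes, each spanning 1.5 log2 units) of 9 members in the single arrays against weeks of dosing; grey circles are normal vehicle, red squares STZ vehicle and blue triangles STZ FK1706, each a pool of 5 rats, and lines join arrays of a group that hold different rats. Rab29, Rab6b and Snap25 have all 6 STZ arrays above the 3 normal arrays, and Vamp2 has 1 high array, STZ FK1706 in week 3 at 9.75. The share of all genes with all 6 STZ arrays above was not counted.

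Counted by overlap, 7 members, or 10%, had all 3 STZ vehicle arrays above all 3 normal arrays, where 5.81% of all genes did. They were Rab29, Rab11b, Snap25, Rab6b, Stx16, Rab6a and Rab3d. In the other direction 5 members did so, Rab34, Snap23, Rab5if, Stx8 and Stx18, or 7.14% against 6.94% of all genes. Rab29, Snap25, Rab6b and Rab6a also had all 3 STZ FK1706 arrays above the same 3 normal arrays. Rab5if had all 6 STZ arrays below them. The share of all genes with such a pattern in 6 STZ arrays was not counted. The same sign in all 3 weeks was seen in 12 members upward, where 14.8% of all genes had it, and in 7 downward, where 16.1% had it. The 95% limits lay within 1.5-fold either way for 67 of the 70 members, the exceptions being Rab29, Syt5 and Snap23, and for 90% of all genes tested. By family the median differences were -0.01 for 40 Rab, 0.07 for 9 Stx, 0.03 for 4 Stxbp, 0.01 for 7 Syt, 0.03 for 6 Vamp and 0.02 for 4 Snap genes. By step they were -0.03 at early and recycling endosomes, -0.02 at the endoplasmic reticulum and Golgi and 0.02 at late endosomes and lysosomes. They were 0.01 at the plasma membrane outside the synapse and 0.02 in synaptic and secretory release.

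What the drug added in diabetic rats was asked by setting STZ FK1706 beside STZ vehicle. It shares the STZ vehicle arrays with the comparison above, so a gene that is high or low in those arrays moves in both. None of 70 members passed, and none of all 6990 genes did (0%; smallest adjusted p 0.999, limma). At an unadjusted p of 0.05 there was 1 member, Rab34, where 3.13% of all genes were past the limit, 1.37% higher and 1.76% lower. The median difference of the members was -0.00, as it was 0.00 for all genes.

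Rab34 was 0.25 ± 0.10 higher with FK1706 (SE, n = 3 against 3; limma, adjusted p = 0.999), with weekly values of 0.33, 0.07 and 0.34 and no overlap. Its second probe set gave -0.01. Stx1a, the neuronal syntaxin, read 8.33, 8.51 and 8.12 with FK1706 against 7.86, 8.20 and 8.07 with vehicle. Its difference of 0.28 ± 0.13 was above 0 in all 3 weeks, though the week 3 FK1706 array lay below the week 2 vehicle array. A dimmer Stx1a probe set, below the filter, had weekly values of both signs in this comparison, given further below. Stx18, a syntaxin of the endoplasmic reticulum, was 0.17 ± 0.09 higher without overlap.

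Vamp2 read 8.92, 9.19 and 9.75 with FK1706 and 8.97, 9.17 and 9.07 with vehicle. The first 2 weeks did not separate the groups, and the mean of 0.21 ± 0.15 came from the week 3 FK1706 array; without that array it was -0.03. A dimmer Vamp2 probe set, below the filter, gave 0.42, 0.44 and -0.64 by week, with week 3 in the opposite direction. Rab20, an endosomal Rab, likewise had a mean of 0.26 ± 0.18 that came from 1 low vehicle array, at 7.49 in week 2, without which it was -0.01. Rab15, of the early endosome, differed by 0.23 ± 0.15, Rab3b by 0.21 ± 0.17 and Rab29 by 0.15 ± 0.11, the last with weekly values of 0.06, 0.30 and 0.09.

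On the lower side, Vamp8, a SNARE of late endosomes and regulated secretion, differed by -0.40 ± 0.22 but had a week 2 value of 0.45 against -0.77 and -0.87 in weeks 1 and 3. Rab11b differed by -0.15 ± 0.09, with weekly values of 0.08, -0.12 and -0.43. Rab4b differed by -0.26 ± 0.14, Rab9a, of the route from late endosome to Golgi, by -0.28 ± 0.16, Stx16 by -0.14 ± 0.08 and Rab7a, the late endosome Rab, by -0.12 ± 0.09, and these 4 were lower in all 3 weeks with overlap. Rab3d, a Rab of secretory granules, differed by -0.19 ± 0.11 with weekly values of both signs. Only Rab5a, the early endosome Rab, and Stx6 had all 3 FK1706 arrays below all 3 vehicle arrays among the members. These are 2 members, or 2.86%, where 3.3% of all genes did so; in the other direction 2 members, Rab34 and Stx18, did, where 3.25% of all genes did. Stx6, a trans-Golgi syntaxin, read 9.28, 9.25 and 8.96 with FK1706, so its difference of -0.15 ± 0.10 was carried by week 3.

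Of the other core fusion genes, beside Stx1a and Vamp2 above, Snap25 differed from STZ vehicle by -0.01 ± 0.05 with 95% limits of -0.13 and 0.11, Vamp1 by -0.04 ± 0.05, Rab3a by -0.04 ± 0.07 and Vamp3 by -0.01 ± 0.11. Snap23 differed by 0.13 ± 0.21, with weekly values from -0.43 to 0.78, and its second probe set gave -0.51. The same sign in all 3 weeks was seen in 6 members upward (12.3% of all genes) and 9 downward (11.5%). The 95% limits lay within 1.5-fold for 62 members, 88.6% of them, against 92.6% of all genes.

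STZ rats given FK1706 were last set against normal rats given vehicle, a comparison of STZ and drug together that shares arrays with both others. No member passed, where 0.0143% of all genes, 1 gene, did. At an unadjusted p of 0.05 there were 6 members, or 8.57%, against 8.18% of all genes. Of the 6, Rab29, Stx1a, Snap25, Vamp2 and Rab6a were higher, as were 3.68% of all genes, and Vamp3 was lower, as were 4.51%. Rab29 was 0.53 ± 0.11 higher (SE, n = 3 against 3; limma, adjusted p = 0.227), a 1.44-fold ratio with weekly values of 0.29, 0.56 and 0.74. This was the smallest adjusted p of any member in the 3 group comparisons, and it did not pass. Stx1a was 0.39 ± 0.13 higher (limma, adjusted p = 0.465), in 3 of 3 weeks without overlap. A dimmer Stx1a probe set, below the filter, gave weekly values of -0.14, 0.93 and 1.27 for STZ vehicle minus normal and of -0.12, 0.07 and -0.42 for STZ FK1706 minus STZ vehicle.

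Snap25 was 0.15 ± 0.05 higher in the FK1706 group than in normal rats, and Rab6a, the general Golgi Rab6, 0.14 ± 0.06 and Rab6b 0.14 ± 0.06 higher, each in 3 of 3 weeks without overlap. On the deposited scale Rab6a and Rab6b were -0.02 and -0.02, where the median of all genes was -0.17. Vamp2 was 0.35 ± 0.15 higher by its week 3 array, with weekly values of -0.05, 0.25 and 0.86. Stx12, a recycling endosome syntaxin, was 0.25 ± 0.12 and Vamp5, a SNARE of muscle, 0.18 ± 0.10 higher. The last of these had no overlap between groups. The 13 skeletal muscle markers summed to 4966 to 6746 in STZ FK1706 arrays and 5580 to 9364 in normal arrays, and their part in the Vamp5 value was not tested.

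Vamp3 differed from normal by -0.24 ± 0.11 (limma, adjusted p = 0.604), again with week 1 at 0.04. Rab14 differed by -0.17 ± 0.08, which was 0.05 as the mean of all its probe sets, Rab33b, a Golgi and autophagy Rab, by -0.25 ± 0.12, Vamp8 by -0.39 ± 0.22, Stx6 by -0.17 ± 0.10 and Rab3c by -0.28 ± 0.17. Rab35, of fast endocytic recycling, differed by -0.30 ± 0.19 and Rab5if by -0.12 ± 0.08. Rab33b, Stx6, Rab35 and Rab5if were lower without overlap, or 5.71% of members against 6.05% of all genes, and 6 members were higher without overlap, or 8.57% against 5.54%. The same sign in all 3 weeks was seen in 8 members upward (13.4% of all genes) and 9 downward (14.1%). Rab3a differed by -0.04 ± 0.07, Vamp1 by -0.02 ± 0.05 and Snap23 by -0.29 ± 0.21. The 95% limits lay within 1.5-fold for 61 members, 87.1% of them, against 89.5% of all genes. A mean difference of at least 1.5-fold was reached by none of the 70 members in any of the 3 group comparisons, where 0.458%, 0.243% and 0.472% of all genes reached it.

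**Figure D3:**
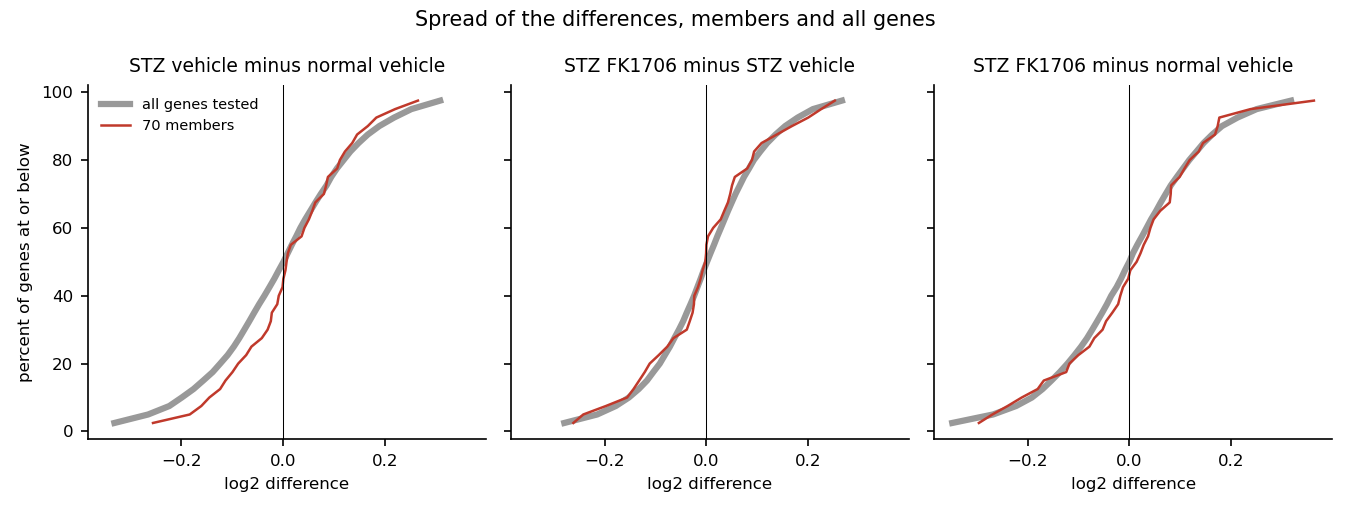
Cumulative percent of genes (vertical axis) at or below a log2 difference (horizontal axis) for the 70 members (red) and all 6990 genes tested (grey), in the 3 group comparisons. The red and grey curves lie close together; the middle 50% of members span -0.06 to 0.09 in STZ vehicle minus normal, where all genes span -0.10 to 0.09.

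The spread of the members over the 9 arrays was slightly narrower than that of all genes, which were not matched to them in signal level. Their median SD over all 9 arrays, whatever the group or week, was 0.13, and that of all genes tested was 0.15. An SD under 0.1 was found in 24 members, or 34.3%, against 18.4% of all genes. The median standard error of a group difference was 0.10 for members, from 0.05 for Snap25 to 0.22 for Vamp8. The median deviation of a family from its mean over the arrays, taken in each array, ran from -0.02 to 0.03 for Rab, -0.06 to 0.06 for Stx, -0.12 to 0.11 for Stxbp, -0.10 to 0.10 for Syt, -0.12 to 0.07 for Vamp and -0.02 to 0.06 for Snap genes.

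Weeks were compared over all 3 groups. No member passed the F test over weeks, where 0.0572% of all genes did (smallest member adjusted p 0.289, for Rab29; limma), and 5 members had an unadjusted p under 0.05, or 7.14% against 10.4% of all genes. They were Rab29, Rab8a, Rab40c, Rab28 and Vamp7. The same 5 had an unadjusted p under 0.05 for week 3 against week 1, where 12.7% of all genes did and 0.0143% passed. The other members with the largest F values were Stx7, Rab13, Rab20, Rab4b and Rab14.

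Rab29 was 0.34 ± 0.11 higher in week 3 than in week 1, with 0.05 in normal, 0.47 in STZ vehicle and 0.50 in STZ FK1706 rats. The week 3 value was thus high in both STZ groups. Rab8a was 0.33 ± 0.10 higher in week 3 than in week 1, with 0.48, 0.26 and 0.26 in the 3 groups. Rab40c, a Rab of a ubiquitin ligase, differed by -0.45 ± 0.14 from week 1 to week 3, with -0.31, -0.24 and -0.79. Rab28 differed by -0.28 ± 0.09, with -0.22, -0.32 and -0.30. Vamp7, a SNARE of lysosomes and of growing neurites, differed by -0.22 ± 0.09, with -0.26, -0.21 and -0.18. Counted by overlap, the 3 arrays of week 3 lay above all 3 of week 1 for 6 members (9.53% of all genes), Rab8a, Rab20, Rab31, Stxbp2, Syt11 and Snap29, and below them for 4 (9.23% of all genes), Rab40c, Rab28, Vamp7 and Vamp1.

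Stx7, a late endosome syntaxin, was highest in week 2, with a difference of 0.17 ± 0.06 from week 1, and differed by -0.14 ± 0.06 from week 2 to week 3. Rab13, a Rab of cell junctions and neurites, was 0.52 ± 0.21 higher in week 3 than in week 2, and Rab20 0.47 ± 0.18 higher, the latter mostly in STZ vehicle rats, at 1.07. Rab4b differed by -0.30 ± 0.14 from week 1 to week 3, most in STZ FK1706 rats, at -0.56. Rab14 differed by -0.09 ± 0.08 from week 1 to week 3, which became 0.02 without the week 1 normal array. On the deposited scale, whose median gene was 0.43 lower in week 3 than in week 1, Rab29, Rab8a and Rab20 were -0.12, -0.12 and -0.10, so their rank above the median held while the sign turned.

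**Figure D4:**
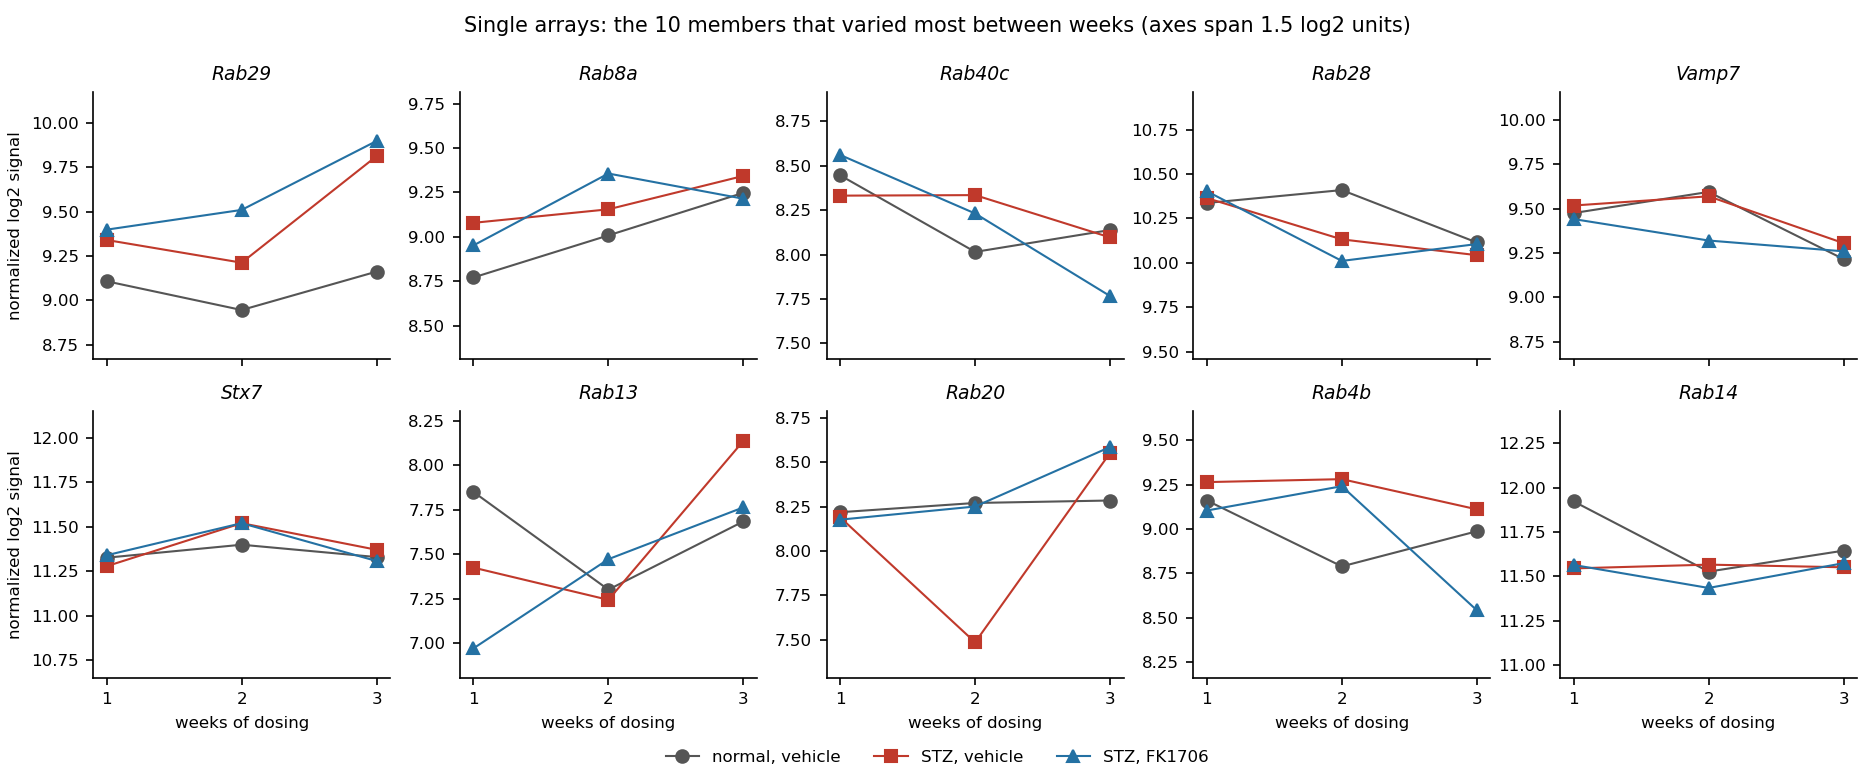
Normalized log2 signal (vertical axes, each spanning 1.5 log2 units) in single arrays against weeks of dosing for the 10 members with the largest F over weeks; symbols and colours are grey circles for normal vehicle, red squares for STZ vehicle and blue triangles for STZ FK1706. Rab8a is higher and Rab40c, Rab28 and Vamp7 are lower in week 3 than in week 1 in all 3 groups.

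A change of a group difference per week was also fitted, with 2 residual degrees of freedom. For STZ vehicle minus normal no member passed, and none of all genes did (0%), while 2 members had an unadjusted p under 0.05 against 4.08% of all genes. They were Rab15, with 0.40 ± 0.15 per week (limma, adjusted p = 0.999), and Rab35, with -0.49 ± 0.19 per week (limma, adjusted p = 0.999). Rab15 read 8.25, 8.79 and 8.82 by week for STZ vehicle against 8.80, 8.89 and 8.56 for normal. Rab35 read 8.54, 7.86 and 7.58 for STZ vehicle against 7.92, 8.31 and 7.95 for normal. The week 1 STZ vehicle array was the lowest of the 9 for Rab15 and the highest of the 9 for Rab35. For Rab29 the slope was 0.21 ± 0.12 per week (limma, adjusted p = 0.999).

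For STZ FK1706 minus STZ vehicle the unadjusted count was again 2, against 3.48% of all genes, with none passing. Vamp2 had 0.36 ± 0.13 per week (limma, adjusted p = 0.999), and Rab11b had -0.26 ± 0.09 per week (limma, adjusted p = 0.999). Rab11b was 0.08 above STZ vehicle in week 1 and 0.43 below it, at the normal level, in week 3.

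Second probe sets show how far a gene's value rests on 1 probe set. Of the 84 members, 27 had more than 1 probe set, and 20 further probe sets in 17 genes were bright enough to be tested. Their sign matched that of the probe set used in 10 of 20 for STZ vehicle against normal, 6 of 20 for STZ FK1706 against STZ vehicle and 11 of 20 for STZ FK1706 against normal. Rab11b and Rab34 matched in the first comparison and Snap23 did not. The 2 further Vamp1 probe sets gave 0.03 and -0.26. Rab29, Rab6b, Snap25 and Vamp3 have 1 probe set each.

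**Figure D5:**
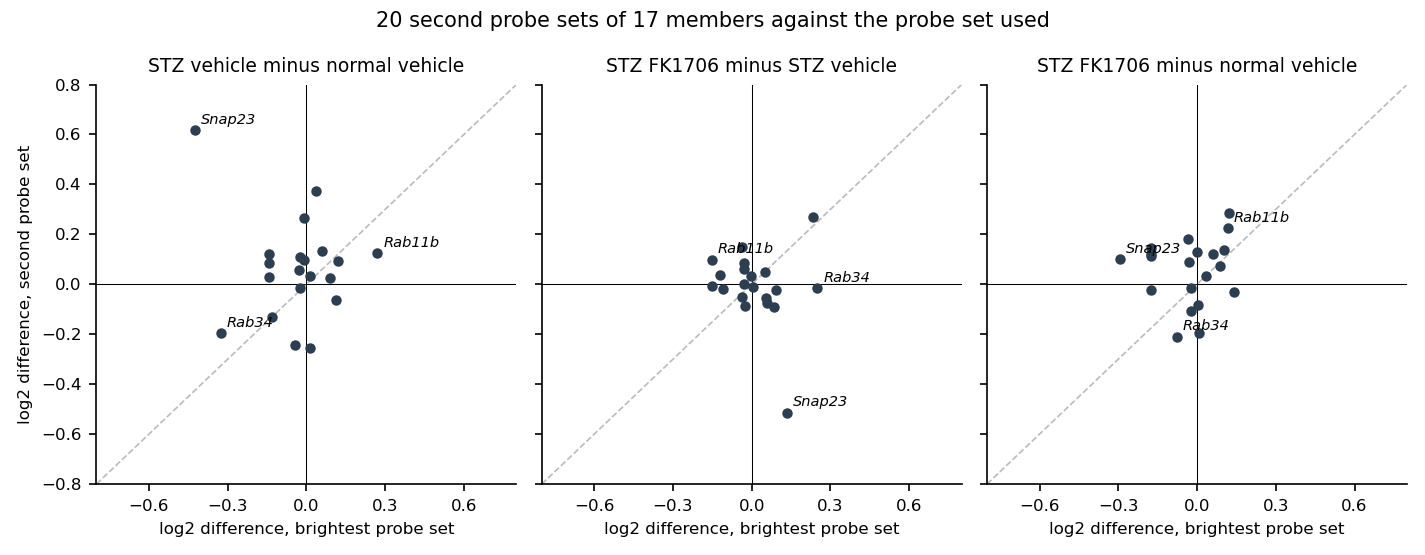
Log2 difference of the brightest probe set of a member (horizontal axis) against that of each further probe set above the filter (vertical axis), 20 points from 17 members in each of 3 comparisons, with a dashed line of equality. Points lie on both sides of 0; Snap23 has -0.43 against 0.62 in STZ vehicle minus normal, and Rab34 has -0.33 against -0.19.

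The other genes of the pathway had no call either. None of 16 tested priming and docking genes, 26 other vesicle proteins, 27 other SNAREs and tethers, 19 Rab regulators or 33 endocytosis and coat genes passed in any group comparison. Their median differences of STZ vehicle from normal were 0.03, 0.01, 0.06, -0.02 and 0.06. Chgb, a granule matrix protein of the dense core vesicle, had the smallest p of these lists, 0.41 ± 0.10 higher in STZ FK1706 than in normal rats (limma, adjusted p = 0.291), with weekly values of 0.32, 0.36 and 0.54. It was 0.31 ± 0.10 higher than in STZ vehicle rats, in 3 of 3 weeks. Scg5, a granule chaperone, was 0.15 ± 0.06 higher in STZ vehicle than in normal rats and differed by -0.15 ± 0.06 between FK1706 and STZ vehicle, 2 values that share the STZ vehicle arrays. Chga, another granule protein, was 0.22 ± 0.10 higher in STZ vehicle rats, and Sv2b and Syp, both synaptic vesicle membrane proteins, were 0.18 ± 0.07 higher in STZ FK1706 than in normal rats and 0.25 ± 0.13 higher than in STZ vehicle rats, respectively. The weekly values were 0.01, 0.24 and 0.29 for Sv2b and 0.00, 0.12 and 0.63 for Syp, so that most of the Syp value came from week 3. For Chga they were 0.34, 0.29 and 0.03. Syn2, which ties vesicles to actin, differed by -0.22 ± 0.08 in STZ FK1706 from normal rats. Other genes of this list went both ways in that comparison. They gave -0.17 for Scg2, -0.17 for Vgf, -0.13 for Sv2c, 0.08 for Scg3 and 0.23 for Sv2a. Between STZ vehicle and normal rats, Syp differed by -0.09 and Scg2 by -0.15.

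Among the tethers, Vps16, a subunit of the HOPS complex of lysosome fusion, was 0.28 ± 0.11 higher in STZ vehicle and 0.39 ± 0.11 higher in STZ FK1706 than in normal rats, and Vps33a, another subunit, was 0.26 ± 0.10 higher in the latter. The other HOPS genes tested went both ways in that comparison, with -0.26 for Vps11, -0.16 for Vps39 and 0.10 for Vps41. Exoc6b of the exocyst, which docks vesicles at the plasma membrane, was 0.24 ± 0.10 higher in STZ vehicle than in normal rats and differed by -0.32 ± 0.10 with FK1706. Uso1, a Golgi tether, differed by -0.21 ± 0.08 in STZ vehicle rats. Use1 was 0.16 ± 0.09 and Exoc8 -0.18 ± 0.12 away from STZ vehicle with FK1706. Each of the values in this paragraph had an adjusted p of 0.352 or more.

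At the active zone, Pclo, a scaffold of the release site, differed by -0.28 ± 0.11 and Ppfia1, a liprin, by -0.39 ± 0.17 between STZ vehicle and normal rats, while Nsf, which takes SNARE complexes apart, was 0.16 ± 0.08 higher. Cadps2, a priming factor of dense core vesicles, was 0.30 ± 0.10 higher with FK1706 than with STZ vehicle, in 3 of 3 weeks. Among the Rab regulators, Chm, which escorts new Rab proteins to be lipid-modified, was 0.32 ± 0.13 higher and Myo5a, a vesicle motor, 0.27 ± 0.11 higher in STZ vehicle than in normal rats. The Myo5a value came mostly from week 2, with weekly values of 0.08, 0.65 and 0.08, as did that of Ppfia1, with -0.19, -0.82 and -0.17. Gdi2, which extracts Rab proteins from membranes, differed by -0.17 ± 0.08 with FK1706. For endocytosis, Ap3b2, a neuronal adaptor subunit, was 0.31 ± 0.10 higher in STZ FK1706 than in normal rats, Sh3gl2, or endophilin, 0.27 ± 0.12 higher in STZ vehicle rats, and Dnm2, the general dynamin, differed by -0.63 ± 0.28 between FK1706 and STZ vehicle. In week 2 the values of Nsf and Sh3gl2 were -0.02 each. None of these passed, with adjusted p of 0.457 or more.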

How the data were processed

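RNA from pools of 5 rats was hybridized to 9 Affymetrix arrays, 1 per group and week. The values the authors deposited are linear probe set intensity readings; the submitters' processing notes name MAS5 without a version, and its scaling settings are not given in the sources used here. Trimmed mean signal ranged from 360 to 532 over the arrays, so the deposited values were not on a common level. From these values log2(value + 18.7), with the 10th percentile as offset, was computed and quantile-normalized over 15866 probe sets without controls. Symbols came from the platform annotation: 12783 probe sets had 1 symbol, 312 several and 2771 none; all 84 members matched RefSeq by Entrez ID. 1 probe set per gene, the brightest, was kept, and genes under the 40th percentile of probe set means were left out. limma 3.58.1 (R 4.3.3) fitted group and week, with eBayes with a trend (4 residual and 7.05 prior degrees of freedom) and Benjamini-Hochberg adjustment over 6990 genes; fold changes are on the log2(value + offset) scale, which understates low genes. The pipeline was tested on simulated data. The number of arrays limits the precision.

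The members and lists were chosen with earlier results of these data known. Named are the 8 highest and 8 lowest members by moderated t in each group comparison, 10 core fusion genes whatever their values (3 of which are not analysed here), the 10 members with the largest F over weeks, members counted as not overlapping, and up to 3 genes per further list. Week is a factor of the fit because week is a stage of the study, and it serves as the replicate number; deviations of arrays of the same week correlated between 0.01 and 0.32, with not every pair over 0.1. Alternatives were the deposited scale, median scaling, other offsets, filters, probe set rules and priors, a wider member rule, a fit without week and each array or week left out.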

Additional observations from a re-analysis of the deposited data

How the results depend on the processing

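Over 22 alternative settings, the count of members passing an adjusted p of 0.05 stayed 0 in all 3 group comparisons and both weekly slopes (smallest adjusted p 0.0577, for STZ FK1706 against normal on the deposited scale, where 20 members, 28.6%, had an unadjusted p under 0.05 against 26.8% of all genes, of which 106 passed). For weeks it was 47 on the deposited scale, where 4490 of 6991 genes passed with the fall in array brightness, and 0 elsewhere. The 70 named values were recomputed 1485 times, of which 1465 were counted as unchanged and 14 as turned in sign. Within the 1485 are also 31 sign changes of differences smaller than their standard error. Those 31 were not counted as turned, so not all of the 1465 kept direction. The remaining 6 passed, all for week 3 against week 1 on the deposited scale. On that scale Rab6a and Rab6b were -0.015 and -0.024 for STZ FK1706 against normal, and Rab20, Rab29 and Rab8a were -0.10, -0.12 and -0.12 for week 3 against week 1; this scale carries the brightness of each array. With the mean of all probe sets, which brings in probe sets of opposite sign, Rab14 was 0.023 and Snap23 0.095 for STZ vehicle against normal, and Rab14 was 0.052 for STZ FK1706 against normal. Leaving out 1 array moved Rab14 (week 3 against week 1) between -0.16 and 0.017, Rab3c and Rab28 (STZ vehicle against normal) between -0.40 and 0.012 and between -0.19 and 0.0066, and Rab20 and Vamp2 (STZ FK1706 against STZ vehicle) between -0.01 and 0.44 and between -0.027 and 0.38; Vamp2 was -0.016 without week 3.

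Without week as a replicate block, 0, 0 and 0 members passed in the 3 group comparisons, with 5, 1 and 5 at an unadjusted p under 0.05, or 7.14%, 1.43% and 7.14% against 7.28%, 2.42% and 6.44% of all genes, and 1, 0 and 1 of all genes passing; the block changed no call of a member. With 3 pools a group, most members were bounded within 1.5-fold, but smaller differences could not be told from the spread between pools, and 14 dim members were not tested.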
